A study of Saccharomyces cerevisiae with 12 samples.

Results

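The rapamycin response of the *RRD1* KO is the set of expression differences between *RRD1* KO cultures of budding yeast that were given 100 nM rapamycin and *RRD1* KO cultures that were not. The features described are those whose FPKM averaged 1 or more across the 6 KO libraries, which were 6484 of the 7126 features in the expression table. This choice used the level of a feature and not its change with rapamycin. The KO libraries are 6 of the 12 in the experiment, and the other 6 are from the wild type.

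RNA-seq was made from 4 groups of 3 libraries. The *RRD1* KO groups are strain YSC6273-201925697 with 100 nM rapamycin (libraries 2, 4 and 6) and the same strain without rapamycin (libraries 1, 3 and 5). The wild-type groups are strain BY4730 with 100 nM rapamycin and BY4730 without it, under the same library numbers. All cultures were grown to log phase at 30 °C in YPD, a rich medium, and the treated ones stayed with the drug for 50 min. The KO is 1 strain obtained from a collection, so an effect of the deletion and any other difference of that strain from BY4730 cannot be told apart. The repeats were made on 3 different days, but the labels do not say which libraries share a day, and *p*-values measure the spread between these libraries. Values of 3 libraries are given in the order 2, 4 and 6 with rapamycin and 1, 3 and 5 without. FPKM, the fragment count scaled by transcript length and by the mapped reads of the library, is a share within a library, so a change in total mRNA per cell cannot be seen in it.

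Rapamycin binds the prolyl isomerase Fpr1 in yeast, and the complex inhibits TORC1, the kinase complex that couples growth to nutrient supply. Active TORC1 keeps up transcription of ribosomal protein and ribosome assembly genes, and it holds back the genes of nitrogen catabolite repression (NCR), the general stress response, the retrograde response and autophagy. Part of this control runs through Tap42 and the PP2A-type phosphatases. Rrd1 and its paralog Rrd2 are activators of those phosphatases, and yeast without *RRD1* is known for its resistance to rapamycin.

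*RRD1* (YIL153W) was listed at 0, 0 and 0 FPKM in the treated KO and at 0, 0.103 and 0.203 FPKM in the untreated KO. In the wild type it was at 81.9, 67.2 and 85.3 FPKM with rapamycin and 47.7, 47.5 and 72.3 FPKM without. The deleted gene was thus near absent from every library labelled as KO and present in every wild-type library, and it lies below the filter and was not tested. *RRD2*, the paralog, was at 49.6, 42.2 and 43.0 FPKM in the treated KO and 24.2, 22.2 and 20.3 FPKM in the untreated KO. All treated values of *RRD2* lay above all untreated ones, and limma gave a log2 fold change of 0.98 ± 0.10 (SE) with an adjusted *p* of 1.3e-05. Its log2 fold change in the wild type was 0.95, and the difference between strains was not called (adjusted *p* = 0.95).

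The steps of low FPKM values imply 8610000 to 11920000 mapped reads per library, an estimate that rests on an assumed fragment length. *LEU2*, *URA3* and *MET17* were listed at 0 in all 12 libraries. Pearson correlations of log2(FPKM + 1) lay between 0.960 and 0.966 among treated KO libraries and between 0.959 and 0.965 among untreated ones, against 0.857 to 0.889 between treated and untreated. KO libraries 1 and 2 stood apart from the other KO libraries in the genes of a cells. *MFA1*, which encodes the a-factor pheromone, was at 320730, 131460 and 125100 FPKM in the treated KO and 198870, 67170 and 88463 FPKM in the untreated KO. Among markers of the other mating type, *MF(ALPHA)1* lay between 0.338 and 1.47 FPKM over the KO libraries and *STE3* between 2.71 and 11.2 FPKM. The other markers were higher, with *MF(ALPHA)2* between 28.9 and 49.0 FPKM and *SAG1* between 21.7 and 46.3 FPKM. In these bulk samples fewer cells of a type and less RNA per cell cannot be told apart.

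Rapamycin still changed the expression of a large part of the genome without *RRD1*, with nitrogen, amino acid, vacuolar, respiratory and stress genes higher and ribosome genes lower. In the KO, 3034 features were called at an adjusted *p*-value under 0.01 from limma, which is 46.8% of those tested, and 4185 had an unadjusted *p*-value under 0.05. Of the calls, 2364 were higher with rapamycin (36.5% of features) and 670 were lower (10.3%). The rises had a median log2 fold change of 0.91 and the falls one of −1.13. A change of at least 2-fold on the FPKM + 1 scale was seen in 1035 of the rises and 381 of the falls, and one of at least 8-fold in 52 rises and 6 falls. The 3 treated and 3 untreated KO libraries did not overlap for 67.4% of all features and for 3032 of the called ones. In the wild type, 3388 features (52.3%) were called by the same rule.

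The balance of rises and falls depended on the scaling of the libraries. The median log2 fold change of all features was 0.34, and 77.9% of the calls were rises. Median-ratio scaling, which sets the typical feature to no change, brought the median to 0.00 and the share of rises among calls to 49.7%, with 20.0% of features higher and 20.2% lower. Quantile normalization gave a median of −0.03 and 48.6% rises, and scaling to equal FPKM sums gave 0.55 and 86.1%. For this reason the median of each gene group below is read against 0.34, and groups whose direction turns with the scaling are named as such. In 1965 features the call and its direction were shared by the FPKM as deposited and median-ratio scaling. The FPKM sums take in short genes of very high FPKM. *MFA1* (111 nt) held 320730 of 1947825 FPKM in treated KO library 2 and 125100 of 1848118 FPKM in treated KO library 6.

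**Figure D1:**
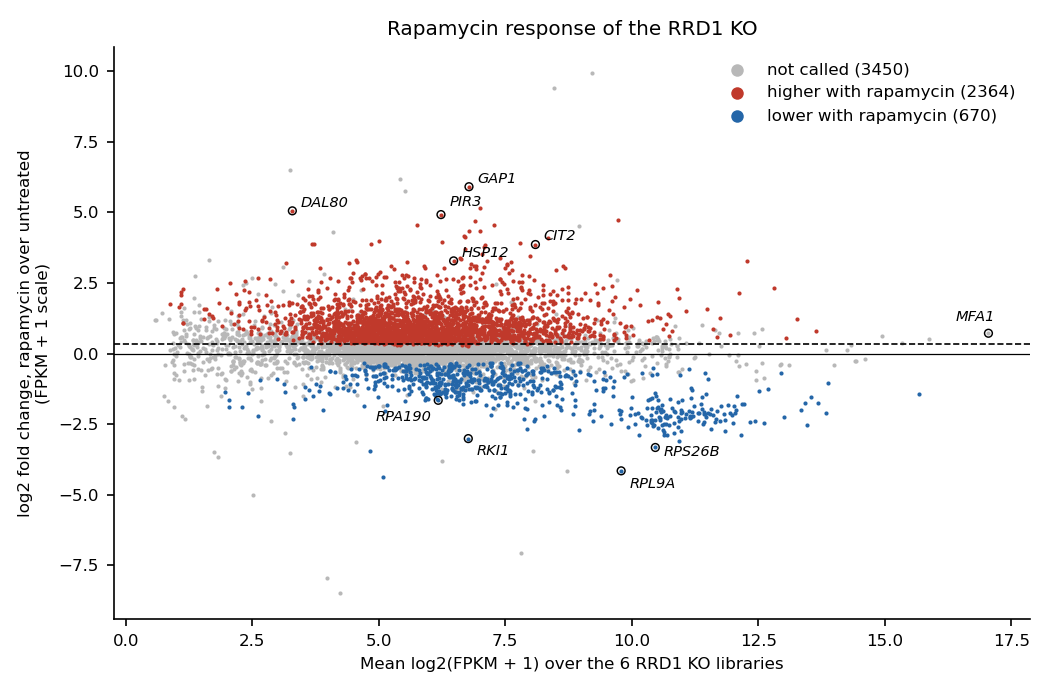
Log2 fold change of each tested feature (rapamycin over untreated RRD1 KO, FPKM + 1 scale) against its mean log2(FPKM + 1) over the 6 KO libraries. Points are features, 2364 called higher in red, 670 called lower in blue and 3450 not called in grey, the dashed line is the median of all features (0.34), and the labelled ribosomal protein genes (RPL9A and RPS26B) lie among the falls at high levels.

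Genes under nitrogen catabolite repression held several of the largest rises in the KO. These genes serve the uptake and breakdown of poor nitrogen sources, and they are switched on by the GATA factors Gln3 and Gat1 when TORC1 is inactive. Of 47 NCR genes tested, 43 were called higher, 2 lower and 2 not, with a median log2 fold change of 1.8 in the KO and 2.47 in the wild type. By treated library the median was 1.74, 1.83 and 1.98 in libraries 2, 4 and 6. With median-ratio scaling 42 of them were still higher.

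Transporters led the group. *GAP1*, the general amino acid permease, was at 684, 956 and 950.2 FPKM in the treated KO and 16.0, 13.5 and 10.7 FPKM in the untreated KO. This was the largest rise among called features whose libraries did not overlap, with a log2 fold change of 5.91 ± 0.16 (SE, adjusted *p* = 3.2e-09). *MEP2*, a high-affinity ammonium permease, was at 571, 531 and 767 FPKM in the treated KO and 30.4, 22.1 and 16.9 FPKM in the untreated KO, a log2 fold change of 4.71. Each treated library was far above each untreated one for both permeases. *DUR3*, the urea transporter, had 117, 120.0 and 145 FPKM in the treated KO and 8.32, 7.37 and 5.67 FPKM in the untreated KO. *DAL5*, the allantoate permease, was at 81.6, 119 and 153 FPKM in the treated KO and 17.2, 13.9 and 16.3 FPKM in the untreated KO, a log2 fold change of 2.78 (adjusted *p* = 5.8e-07). The transporter that fell was *OPT1*, which carries oligopeptides and glutathione, with 23.5, 16.1 and 15.8 FPKM in the treated KO and 80.8, 68.4 and 52.3 FPKM in the untreated KO. The other called fall of the list was *ATO3*, a plasma membrane protein linked to ammonia export (log2 fold change −1.21).

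Regulators and enzymes of nitrogen use rose as well. *DAL80*, a GATA repressor that is itself under NCR, was at 57.0, 52.9 and 56.8 FPKM in the treated KO and 0.965, 0.671 and 0.495 FPKM in the untreated KO. All 3 untreated libraries held it at under 1 FPKM, and the log2 fold change on the FPKM + 1 scale was 5.06 ± 0.20 (SE, adjusted *p* = 1.8e-08). In the allantoin and urea pathway the log2 fold changes were 4.55 for *DAL3* (ureidoglycolate lyase), 2.40 for *DUR1,2* (urea amidolyase) and 2.13 for *DAL2* (allantoicase). *PUT1*, the first enzyme of proline breakdown, was at 66.1, 81.1 and 68.9 FPKM in the treated KO and 5.36, 8.38 and 6.54 FPKM in the untreated KO, again with no overlap. *GLN1*, glutamine synthetase, rose by 2.27 on the log2 scale and *GDH1*, an NADP-dependent glutamate dehydrogenase, by 1.61. *NPR1*, a kinase that acts on permeases downstream of TORC1, had a log2 fold change of 1.57 (adjusted *p* = 4.6e-06).

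The GATA factors bind the core sequence GATAAG, and the upstream DNA of 3 strongly induced NCR genes is shown to let this core be seen beside the values. Each stretch of 80 bases is from the R64 genome, is written 5′ to 3′ in the direction of the gene and ends at least 100 bases before the start codon. Capitals mark GATAAG or its reverse complement CTTATC. The genes were picked after their values and matches were seen.
GAP1: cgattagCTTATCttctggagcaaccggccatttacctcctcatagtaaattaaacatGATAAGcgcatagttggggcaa
DAL80: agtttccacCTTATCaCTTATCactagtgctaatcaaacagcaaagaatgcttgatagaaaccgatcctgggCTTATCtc
DAL5: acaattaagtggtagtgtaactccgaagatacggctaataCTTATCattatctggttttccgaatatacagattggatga
These stretches are chrXI:514763-514842 for *GAP1*, chrXI:506599-506678 for *DAL80* and chrX:719455-719534 for *DAL5*, all on the plus strand, and that of *DAL80* overlaps the neighboring feature YKR032W. In the 300 bases before the start codon GATAAG was found on either strand in 53.2% of the NCR genes, 18.1% of the called rises, 8.9% of the called falls and 14.6% of the 5829 tested genes with such a window. These shares are counts of letters in fixed windows, which may reach into a neighboring gene, and do not show binding.

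Amino acid synthesis rose with a different emphasis. Of 70 biosynthesis genes 48 were called higher, 7 lower and 15 not, with a median log2 fold change of 1.23, against 1.63 in the wild type. With median-ratio scaling 42 were higher and 11 lower. Arginine synthesis held large rises. *ARG4*, argininosuccinate lyase, was at 1044, 1427 and 1606 FPKM in the treated KO and 74.7, 81.9 and 74.6 FPKM in the untreated KO, a log2 fold change of 4.10 (adjusted *p* = 1.8e-08). *ARG1*, which encodes the preceding enzyme argininosuccinate synthetase, was at 346, 431 and 546 FPKM in the treated KO and 25.9, 21.6 and 23.9 FPKM in the untreated KO. For both genes the treated libraries lay more than 10-fold above the untreated ones. *HIS4*, of histidine synthesis, rose by 3.17 on the log2 scale (adjusted *p* = 1.4e-07). In the leucine pathway *LEU1* (isopropylmalate isomerase) and *LEU9* (an isopropylmalate synthase) went the other way, with log2 fold changes of −0.97 and −1.40. These are single genes and do not give the direction of the whole pathway.

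*GCN4*, the activator of these pathways, which is controlled mainly at translation, was at 1553, 1845 and 1870 FPKM in the treated KO and 1179, 1181 and 1477 FPKM in the untreated KO. Its treated values lay above its untreated ones, but the log2 fold change of 0.46 did not pass the threshold (adjusted *p* = 0.019). The Gcn4 core sequence TGACTC, which was added after the data were seen, is shown in capitals (with its reverse complement GAGTCA) upstream of *ARG1*.
ARG1: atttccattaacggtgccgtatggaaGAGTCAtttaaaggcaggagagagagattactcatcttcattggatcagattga
The stretch is chrXV:218911-218990 on the plus strand of R64. TGACTC was found in 60% of the windows of amino acid biosynthesis genes, 11.7% of those of called rises, 5.99% of those of called falls and 7.86% of all windows.

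Permeases under the SPS sensor, which reads external amino acids, did not move as one. Of 20 genes 9 were higher and 1 lower (2 without library 2), and the median of 0.34 was that of all features. *AGP1*, a broad-range permease, was at 696, 732 and 841 FPKM in the treated KO and 42.9, 27.5 and 25.6 FPKM in the untreated KO, a log2 fold change of 4.55. *DIP5*, for acidic amino acids, rose by 2.56 and *PTR2*, for small peptides, by 1.40 on the log2 scale. *TAT1*, a tyrosine and tryptophan permease, was at 144, 121 and 93.6 FPKM in the treated KO and 369, 293 and 243 FPKM in the untreated KO. It was the called fall of the list (log2 fold change −1.33, adjusted *p* = 0.00011), though it overlaps another annotated feature and reads of both may be mixed. *BAP2*, the leucine permease, was at 354, 314 and 311 FPKM in the treated KO and 363, 295 and 362 FPKM in the untreated KO, values that overlapped (adjusted *p* = 0.73). In sulfate and methionine genes 12 of 31 were higher and 4 lower, close to the shares of all features (36.5% and 10.3%), and median-ratio scaling gave 6 higher and 10 lower. *STR2*, a cystathionine gamma-synthase, had a log2 fold change of 2.34 and *SAM1*, S-adenosylmethionine synthetase, one of −0.75, a call lost without KO library 1, 3, 4 or 6. The sign of the median of both lists turned with median-ratio scaling, and leaving out 1 KO library left as few as 6 of the sulfate and methionine rises (library 6), 7 without library 2 and 7 without library 3.

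The retrograde response and the early TCA cycle, which supply the carbon skeleton of glutamate, were higher in the treated KO. Of 27 genes 22 were called higher and 0 lower, with a median of 1.08. Median-ratio scaling gave 16 higher and 1 lower. *CIT2*, the peroxisomal citrate synthase that is used as the marker of the pathway, was at 1243, 861 and 1060 FPKM in the treated KO and 50.4, 49.2 and 142 FPKM in the untreated KO. Untreated library 5 was nearly 3-fold above the other 2 untreated ones and still far below every treated library (log2 fold change 3.86 ± 0.40, adjusted *p* = 1.1e-05). *DLD3*, a cytosolic dehydrogenase of the same regulon, rose by 2.47 and *ACO1*, aconitase, by 1.40 on the log2 scale. Respiration followed, with 44 of 51 respiratory chain and ATP synthase genes higher, none called lower and a median of 0.96, against 0.76 in the wild type. With median-ratio scaling 31 of these genes were higher and 2 lower. *COX5B*, an isoform of cytochrome *c* oxidase subunit 5, was at 619, 634 and 682 FPKM in the treated KO and 126, 80.2 and 88.2 FPKM in the untreated KO. *STF1*, a small regulator of ATP synthase, had a log2 fold change of 3.12 (adjusted *p* = 6.8e-09), and *CYC1*, cytochrome *c*, one of 0.80, a call lost without KO library 3, 4, 5 or 6 or wild-type library 3. *HAP4*, the activator of respiratory genes, was at 104, 75.0 and 67.4 FPKM in the treated KO and 162, 80.03 and 141 FPKM in the untreated KO and was not called (adjusted *p* = 0.067).

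Use of acetate and fat was raised in part. Of 22 glyoxylate and gluconeogenesis genes 13 were higher, and *ADH2*, the alcohol dehydrogenase that oxidizes ethanol, was the one called lower, at 67.6, 69.3 and 53.7 FPKM in the treated KO and 135, 112 and 94.5 FPKM in the untreated KO, a call lost without KO library 1 or 6. *CRC1* and *YAT2*, of the carnitine shuttle, had log2 fold changes of 2.65 and 2.44. *MLS1*, malate synthase, was at 18.0, 15.8 and 16.3 FPKM in the treated KO and 4.29, 4.13 and 3.46 FPKM in the untreated KO. Of 50 peroxisomal genes 30 were higher, led by *PEX21* (1.64) and *PEX11* (1.55), while *FAA4*, an acyl-CoA synthetase, had a log2 fold change of −1.09. With median-ratio scaling 16 peroxisomal genes were higher and 4 lower, and in the glyoxylate and gluconeogenesis list 11 were higher and 3 lower.

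Vacuolar proteases had the highest median of the 40 lists. Of 14 genes 12 were called higher, none lower, with a median log2 fold change of 2.22 in the KO and 2.18 in the wild type, and the count was 12 with median-ratio scaling too. *PEP4*, proteinase A, which activates the others, was at 673, 767 and 809.8 FPKM in the treated KO and 192, 163 and 181 FPKM in the untreated KO. *PRB1*, proteinase B, was at 279.8, 252 and 350.0 FPKM in the treated KO and 77.0, 69.4 and 107 FPKM in the untreated KO. Both were higher in every treated library, and the log2 fold change of *PEP4* was 2.06. *CPS1*, carboxypeptidase S, rose by 2.78 on the log2 scale, although its treated values ran from 106.8 to 299.8 FPKM. *RNY1*, a vacuolar ribonuclease, rose by 2.73.

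Autophagy genes rose in the same libraries, 37 of 43 called higher and none lower, with a median of 1.16. Median-ratio scaling gave 28 higher and 1 lower. *ATG8*, the ubiquitin-like protein of the autophagosome membrane, was at 349, 418 and 499 FPKM in the treated KO and 66.2, 56.9 and 97.3 FPKM in the untreated KO (log2 fold change 2.53, adjusted *p* = 4.5e-06). *ATG14*, a subunit of the autophagy-specific PI3-kinase complex, rose by 1.25 on the log2 scale. *ATG34*, a receptor for selective transport to the vacuole, rose by 2.67. *ATG1*, the kinase that starts the process, was at 27.9, 17.5 and 19.1 FPKM in the treated KO and 14.9, 9.79 and 12.7 FPKM in the untreated KO. Its log2 fold change of 0.73 passed the threshold (adjusted *p* = 0.008) but kept the call in 12 of 23 alternative analyses, and it was lost without KO library 2, 3, 5 or 6 or wild-type library 1, 3, 5 or 6. In the proteasome 15 of 37 genes were called higher, near the 36.5% of all features, with a median of 0.39 that is close to the median of all features. With median-ratio scaling 2 were called higher. Polyubiquitin, *UBI4*, had the largest change there, at 881, 915 and 910.5 FPKM in the treated KO and 210.5, 201 and 199 FPKM in the untreated KO.

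The general stress response, carried by the activators Msn2 and Msn4, was induced without *RRD1*. Of 53 genes 43 were called higher and none lower, with a median log2 fold change of 1.44 in the KO and 1.56 in the wild type. By treated library the median was 1.87, 1.13 and 1.45 in libraries 2, 4 and 6. *HSP12*, a small membrane-associated stress protein, was at 511, 265 and 158 FPKM in the treated KO and 31.8, 37.4 and 17.6 FPKM in the untreated KO. *HSP26*, a small heat shock protein, was at 899, 249 and 233 FPKM in the treated KO and 36.9, 25.1 and 24.0 FPKM in the untreated KO. Treated library 2 was the highest for both genes, and no treated value reached down to the untreated ones. Their log2 fold changes were 3.28 ± 0.40 and 3.69 ± 0.42 (SE). Library 2 is also the treated library with the highest a-cell genes, and the part of that in the stress values was not tested. Without it the stress median was 1.29 and 43 genes were still called.

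*DDR2*, a small multi-stress gene, was at 1008, 444 and 315 FPKM in the treated KO and 112, 54.9 and 6.75 FPKM in the untreated KO. It spread widely within the untreated group and had a log2 fold change of 3.83 ± 0.78 (SE). *CTT1*, cytosolic catalase, was at 33.7, 27.1 and 34.7 FPKM in the treated KO and 13.3, 9.69 and 13.6 FPKM in the untreated KO. *MSN4* itself rose by 1.91 on the log2 scale (adjusted *p* = 5.3e-05). The stress response element has the core AGGGG, shown in capitals (with its reverse complement CCCCT) upstream of *HSP12* and *DDR2*.
HSP12: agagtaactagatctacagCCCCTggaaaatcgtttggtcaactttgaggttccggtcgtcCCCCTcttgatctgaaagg
DDR2: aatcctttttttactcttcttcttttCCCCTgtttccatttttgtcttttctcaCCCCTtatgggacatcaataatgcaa
The stretches are chrVI:107005-107084 on the plus strand and chrXV:231905-231984 on the minus strand of R64. AGGGG was found in 67.9% of the windows of general stress genes and in 71.4% of those of vacuolar proteases. It was in 30.6% of the windows of all called rises, 14.9% of those of called falls and 22.3% of all windows.

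Storage carbohydrate and antioxidant genes followed. In trehalose and glycogen metabolism 17 of 23 genes were called higher, with a median of 1.03, against 1.01 in the wild type. With median-ratio scaling 14 were higher and 1 lower. *NTH1*, neutral trehalase, was at 244, 254 and 263 FPKM in the treated KO and 70.8, 58.5 and 64.4 FPKM in the untreated KO. *TPS1* and *TSL1*, of the trehalose synthase complex, had log2 fold changes of 1.22 and 1.57, and *GSY2*, glycogen synthase, was called higher as well. Genes of synthesis and of breakdown were thus higher at once. *GPH1*, glycogen phosphorylase, was at 39.9, 15.7 and 15.8 FPKM in the treated KO and 6.26, 4.13 and 4.81 FPKM in the untreated KO, with library 2 highest. Of 26 antioxidant genes 18 were higher, among them the peroxiredoxins *TSA2* (2.02) and *PRX1*. Median-ratio scaling left 12 antioxidant genes higher and 2 lower.

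Of 36 heat shock chaperones 13 were higher and 3 lower, where 36.5% and 10.3% of all features were called in those directions. The median of the list was 0.40, against 0.34 for all features. *SSB1* and *SSB2*, the Hsp70 proteins that sit on translating ribosomes, were both lower. *SSB1* was at 229.6, 297 and 270.3 FPKM in the treated KO and 809.5, 833 and 853 FPKM in the untreated KO, a log2 fold change of −1.65, and *SSB2* had one of −1.39. The 2 genes are close in sequence, so reads could have been split between them. *SSA4*, a stress-induced cytosolic Hsp70, was at 121, 60.1 and 46.9 FPKM in the treated KO and 29.6, 27.7 and 25.2 FPKM in the untreated KO and was called higher (adjusted *p* = 0.0013). *HSP82*, an Hsp90, was at 324, 177 and 131 FPKM in the treated KO and 51.1, 119 and 94.2 FPKM in the untreated KO and did not pass (adjusted *p* = 0.0104). All 8 subunits of the CCT chaperonin, which folds actin and tubulin, had negative log2 fold changes with a median of −0.31. Of these 4 were called, which became 8 with median-ratio scaling, 0 with equal FPKM sums, 0 without library 3 or 6, 1 without library 2 and 2 without library 4 or 5.

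**Figure D2:**
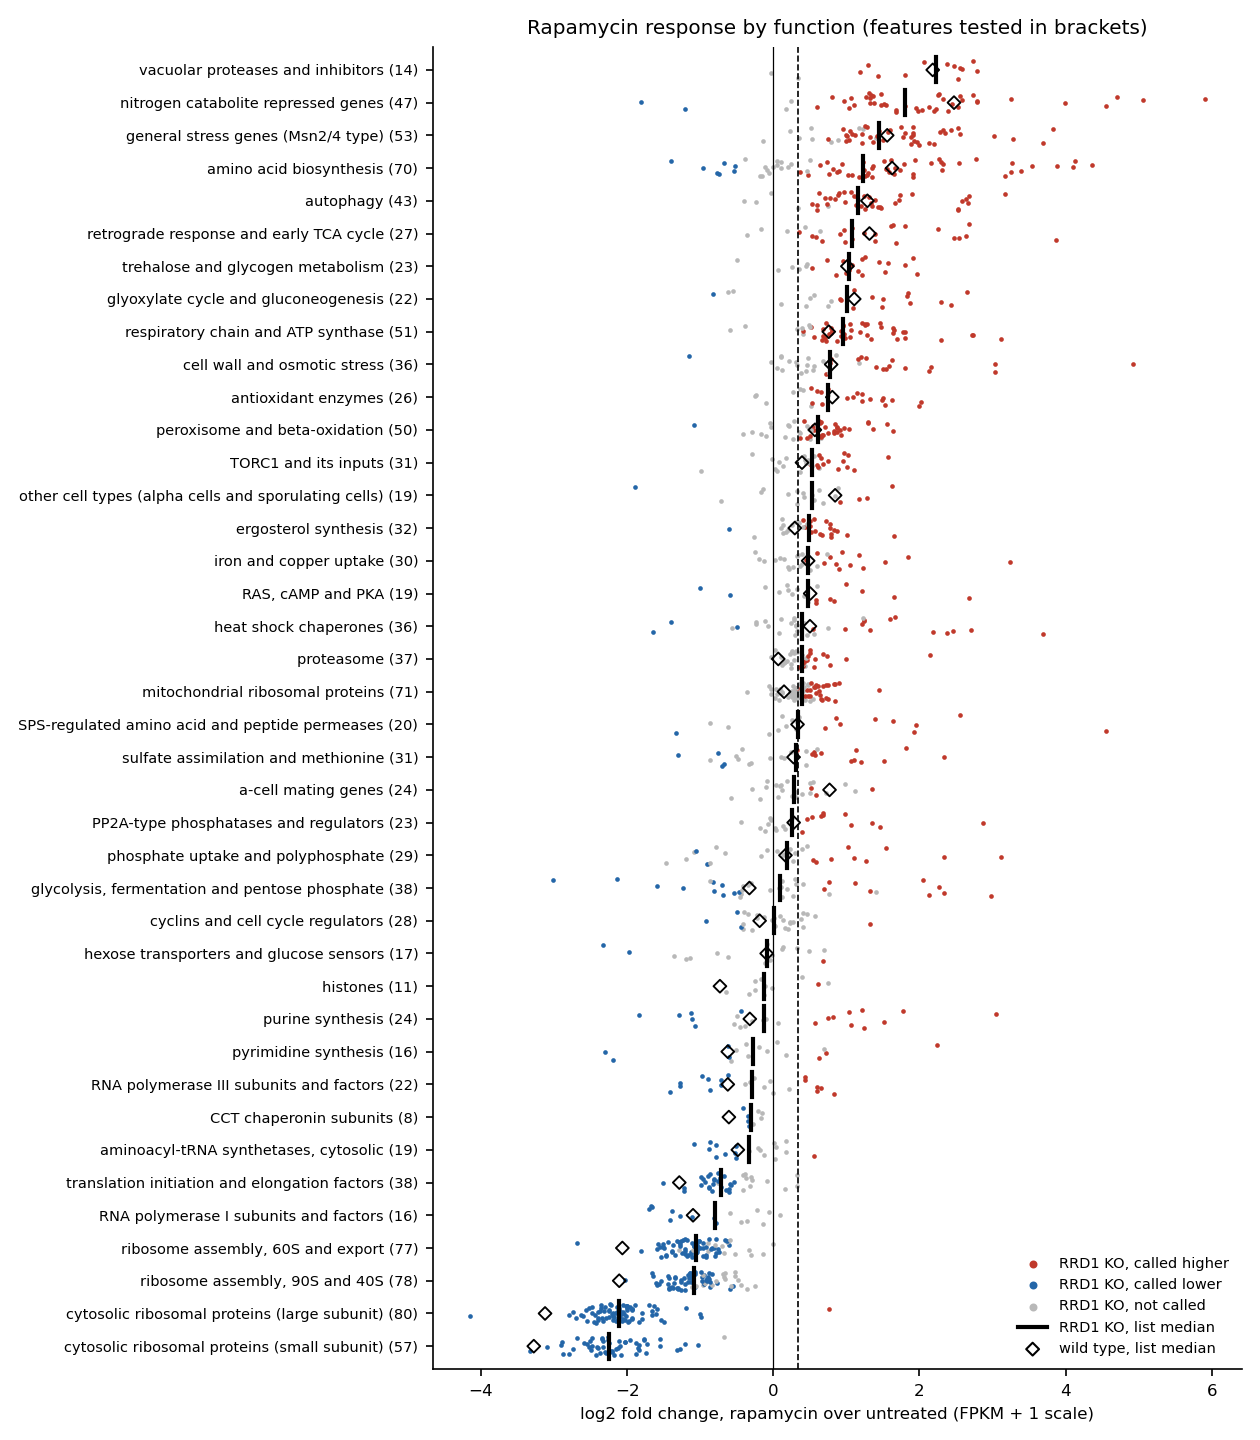
Log2 fold change (rapamycin over untreated, FPKM + 1 scale) in the RRD1 KO for the members of the 40 gene lists, ordered by the median in the KO. Points are genes, red called higher, blue called lower and grey not called, black bars are KO medians, open diamonds are wild-type medians and the dashed line is the median of all features in the KO (0.34). The vacuolar protease list stands at the top (median 2.22) and the small subunit ribosomal proteins at the bottom (median −2.25), where the wild-type diamonds lie further left.

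Cytosolic ribosomal proteins were the most uniform group of falls. In the large subunit 79 of 80 genes were called lower, with a median log2 fold change of −2.12 in the KO and −3.12 in the wild type. In the small subunit 56 of 57 were, with medians of −2.25 in the KO and −3.28 in the wild type. The treated and untreated KO libraries did not overlap for any tested gene of either list. By treated library the large subunit median was −2.53, −1.94 and −1.89 in libraries 2, 4 and 6, and library 2 was the lowest for the small subunit as well.

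*RPL3*, a protein near the peptidyl transferase center, was at 1124, 1538 and 1419 FPKM in the treated KO and 5162, 5129 and 5506 FPKM in the untreated KO, a log2 fold change of −1.96 (adjusted *p* = 5.7e-06). *RPP0*, the base of the ribosomal stalk, was at 582, 812 and 892 FPKM in the treated KO and 3387, 3473 and 3840 FPKM in the untreated KO. *RPS3*, at the mRNA entry site of the small subunit, was at 587, 770.0 and 730.0 FPKM in the treated KO and 3720, 4116 and 3930 FPKM in the untreated KO. All of these are single genes with no paralog, so reads of a copy do not enter their values. *RPL9A* had the largest fall of the ribosomal proteins, with 206, 229.8 and 193 FPKM in the treated KO and 3483, 4058 and 3695 FPKM in the untreated KO (log2 fold change −4.15). *RPS26B* and *RPS22A* fell by 3.33 and 3.10 on the log2 scale. The last 3 have a near-identical paralog, and how Cufflinks split reads between copies makes each copy's value uncertain. *ASC1*, the RACK1 protein on the small subunit, was at 266, 480.4 and 556 FPKM in the treated KO and 2862, 3237 and 3128 FPKM in the untreated KO, and it overlaps another annotated feature.

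A pair of ribosomal protein genes did not follow. *RPL15B* was at 177, 216 and 213 FPKM in the treated KO and 120.0, 116 and 118 FPKM in the untreated KO and was called higher (log2 fold change 0.77, adjusted *p* = 0.00015). With median-ratio scaling no large subunit gene was called higher. *RPL15B* has a paralog, *RPL15A*, and reads shared by the copies make its value uncertain. *RPS9A* was at 249, 439.9 and 430.2 FPKM in the treated KO and 584, 638 and 519.8 FPKM in the untreated KO. These ranges did not overlap, but the log2 fold change of −0.68 was not called (adjusted *p* = 0.087), whereas it was −2.94 in the wild type. *RPS9B*, its paralog, fell by 2.87 on the log2 scale in the KO. The difference between strains had an adjusted *p* of 0.032 for *RPS9A*, and reads shared by the paralogs make both values uncertain.

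Genes for ribosome assembly fell about 1 log2 unit. Of 78 genes for the 90S particle and the small subunit 59 were called lower and none higher, with a median of −1.08 in the KO and −2.11 in the wild type. Of 77 genes for the large subunit and export 63 were called lower and none higher, with medians of −1.06 in the KO and −2.06 in the wild type. With median-ratio scaling 78 and 74 of the genes were called lower. Equal FPKM sums gave 51 and 57. Treated library 6 had the lowest median of both lists (−1.41 and −1.42). Without it 46 of the 90S and small subunit genes and 38 of the large subunit assembly genes were called. Without untreated library 3 the count was 45 in each list.

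*NOP7*, a nucleolar factor for early large subunit particles, was at 123.1, 106 and 71.8 FPKM in the treated KO and 339, 342 and 353 FPKM in the untreated KO (log2 fold change −1.81, adjusted *p* = 7.0e-05). *ERB1*, which works in a complex with Nop7, was at 55.3, 56.6 and 37.7 FPKM in the treated KO and 129.8, 138 and 120.3 FPKM in the untreated KO. *PWP2*, of the small subunit processome, was at 54.1, 45.4 and 35.0 FPKM in the treated KO and 134, 122 and 107 FPKM in the untreated KO. In each of them library 6 was the lowest and the groups were separate. *NOP1*, the fibrillarin of yeast, had a log2 fold change of −1.32, *UTP10*, of the processome, one of −0.86, *NOG1*, a GTPase of large subunit assembly, one of −1.18, and *NOP2*, an rRNA methyltransferase, one of −1.11. The call of *NOG1* was lost without KO library 1, 3 or 6. *DBP2*, a DEAD-box RNA helicase, was at 261, 96.5 and 33.8 FPKM in the treated KO and 955, 591 and 417 FPKM in the untreated KO, and its call was lost without KO library 1. *DHR2*, another helicase of the processome, fell by 2.03 on the log2 scale.

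RNA polymerase I, which transcribes rRNA, was lower in part of its genes. Of 16 genes 9 were called lower and none higher, a count that was 14 with median-ratio scaling. It was 7 with equal FPKM sums or with only the KO libraries in the fit, and 6 without KO library 1, 3, 4 or 6. *RPA190*, the largest subunit, was at 41.7, 42.2 and 35.6 FPKM in the treated KO and 138, 120.5 and 125 FPKM in the untreated KO (log2 fold change −1.66, adjusted *p* = 9.6e-06). *RPA135*, the second largest, was at 69.8, 70.6 and 59.4 FPKM in the treated KO and 236, 221 and 190.1 FPKM in the untreated KO. No treated value of either subunit came near an untreated one. The largest fall of the list was that of *RPA43* (log2 fold change −1.70, adjusted *p* = 0.0016). In RNA polymerase III 9 of 22 genes were lower and 6 higher, where 10.3% and 36.5% of all features were called in those directions. The falls were led by the polymerase subunits *RPC53* (−1.42) and *RPC31* (−1.28) and the rises by *TFC3* (0.83) and *TFC4* (0.66), which belong to the initiation factor TFIIIC. With median-ratio scaling 1 of the rises was called, and the falls were 5 without library 3, 5 or 6.

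Assembly genes are known for a pair of upstream elements, PAC (core GATGAG) and RRPE (core AAAATTTT), and stretches with both are shown for 3 genes that fell. Capitals mark the cores, GATGAG also as its reverse complement CTCATC, and neighboring or overlapping matches run together.
RPA190: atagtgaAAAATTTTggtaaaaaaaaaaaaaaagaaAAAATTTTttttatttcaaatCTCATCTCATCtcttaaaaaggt
PWP2: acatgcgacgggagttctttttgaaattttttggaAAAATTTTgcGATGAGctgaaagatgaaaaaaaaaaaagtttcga
NOP7: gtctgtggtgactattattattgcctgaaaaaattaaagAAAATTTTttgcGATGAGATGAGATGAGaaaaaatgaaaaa
The stretches are chrXV:960758-960837 on the plus strand for *RPA190*, chrIII:223338-223417 on the minus strand for *PWP2* and chrVII:695237-695316 on the plus strand for *NOP7*. GATGAG was in 88.5% of the windows of the 90S and small subunit assembly genes and 87.0% of those of the large subunit assembly genes, and AAAATTTT was in 78.2% and 76.6%. In large subunit ribosomal protein genes, which fell further, GATGAG was in 10% and AAAATTTT in 7.5% of windows. Over all called falls the shares were 42.6% and 38.7%, over called rises 12.2% and 3.41%, and over all windows 18.8% and 9.62%.

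The translation machinery outside the ribosome was lower too. Of 38 initiation and elongation factors 26 were called lower and none higher, with a median of −0.72 in the KO and −1.29 in the wild type. *TEF4*, a subunit of elongation factor eEF1B that overlaps another annotated feature, was at 416, 496 and 496 FPKM in the treated KO and 1322, 1348 and 1321 FPKM in the untreated KO (log2 fold change −1.51). *YEF3*, elongation factor 3, was at 1418, 1653 and 1510 FPKM in the treated KO and 2732, 2390 and 2632 FPKM in the untreated KO (log2 fold change −0.76, adjusted *p* = 0.00034), a fall that became a log2 fold change of 0.22 under quantile normalization. *EFT2*, elongation factor 2, which shares its sequence with *EFT1*, fell by 1.23 on the log2 scale. *TEF2*, elongation factor 1A, also a duplicated gene, was at 5304, 8082 and 7195 FPKM in the treated KO and 8898, 9478 and 8584 FPKM in the untreated KO and was not called (adjusted *p* = 0.072). Of 19 cytosolic aminoacyl-tRNA synthetases 9 were lower, with *GLN4* (−1.09) and *MES1* (−0.87) in front, and *KRS1* was higher (0.55). With median-ratio scaling the synthetases called lower were 11 and no gene was called higher.

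Mitochondrial ribosomal proteins had no called fall. Of 71 genes 26 were called higher and none lower, where 36.5% and 10.3% of all features were called in those directions. The median of 0.39 was close to that of all features. Median-ratio scaling gave 3 higher and 1 lower, and the count was 17 without library 3, 5 or 6. *MRP2*, a protein of the small mitochondrial subunit, was at 356, 363 and 364 FPKM in the treated KO and 206, 191 and 180.3 FPKM in the untreated KO, and it was called with all libraries but not without any one of KO libraries 2 to 6.

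Nucleotide synthesis genes moved in both directions. Of 16 pyrimidine genes 3 were higher and 4 lower, against 36.5% and 10.3% of all features. *URA1*, dihydroorotate dehydrogenase, was at 103, 122 and 90.05 FPKM in the treated KO and 545, 498 and 522 FPKM in the untreated KO (log2 fold change −2.31, adjusted *p* = 5.9e-07). *URA7*, the major CTP synthetase, was at 87.6, 79.8 and 45.8 FPKM in the treated KO and 336, 345 and 271 FPKM in the untreated KO. The minor isozymes moved upward, with log2 fold changes of 0.72 for *URA8*, the other CTP synthetase, and 2.24 for *URA10*, an orotate phosphoribosyltransferase. Of 24 purine genes 10 were higher and 6 lower, where 36.5% and 10.3% of all features were called in those directions. *ADE17*, of the last steps to IMP, rose by 3.04, and *IMD4*, an IMP dehydrogenase gene that overlaps another annotated feature, fell by 1.84 on the log2 scale. The falls of the pyrimidine list were 9 and those of the purine list 11 with median-ratio scaling, and the sign of the purine median turned with equal FPKM sums.

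Genes of sugar metabolism were called in both directions. Of 38 genes of glycolysis, fermentation and the pentose phosphate pathway 9 were higher and 10 lower. Over all features 36.5% and 10.3% were called in those directions. The fall count was 6 without library 4. Median-ratio scaling gave 7 higher and 17 lower, against 20.0% and 20.2% of all features, and turned the sign of the median. *RKI1*, ribose-5-phosphate isomerase, was at 56.7, 46.8 and 19.6 FPKM in the treated KO and 348, 313 and 271 FPKM in the untreated KO (log2 fold change −3.01). *ALD6*, the cytosolic acetaldehyde dehydrogenase, was at 352, 193 and 150.01 FPKM in the treated KO and 1474, 855 and 707 FPKM in the untreated KO. Both ranges were wide within groups but did not meet. *ADH5*, an alcohol dehydrogenase, rose by 2.99 on the log2 scale. Among hexose transporters *HXT1*, of low affinity, was at 139, 136 and 96.3 FPKM in the treated KO and 842, 437 and 308 FPKM in the untreated KO, and *HXT2*, of high affinity, at 194, 135 and 66.9 FPKM in the treated KO and 1540, 463 and 318 FPKM in the untreated KO. Hexose transporter genes are close in sequence, which makes single values uncertain. These were the called falls among 17 hexose transporter and sensor genes, and *RGT2*, a glucose sensor, was the called rise (0.68). That rise was lost without any one of KO libraries 2 to 6, while the falls were 1 without library 6 and 4 without library 5. Median-ratio scaling gave 0 higher and 6 lower in this list, and the sign of its median turned with equal FPKM sums.

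**Figure D3:**
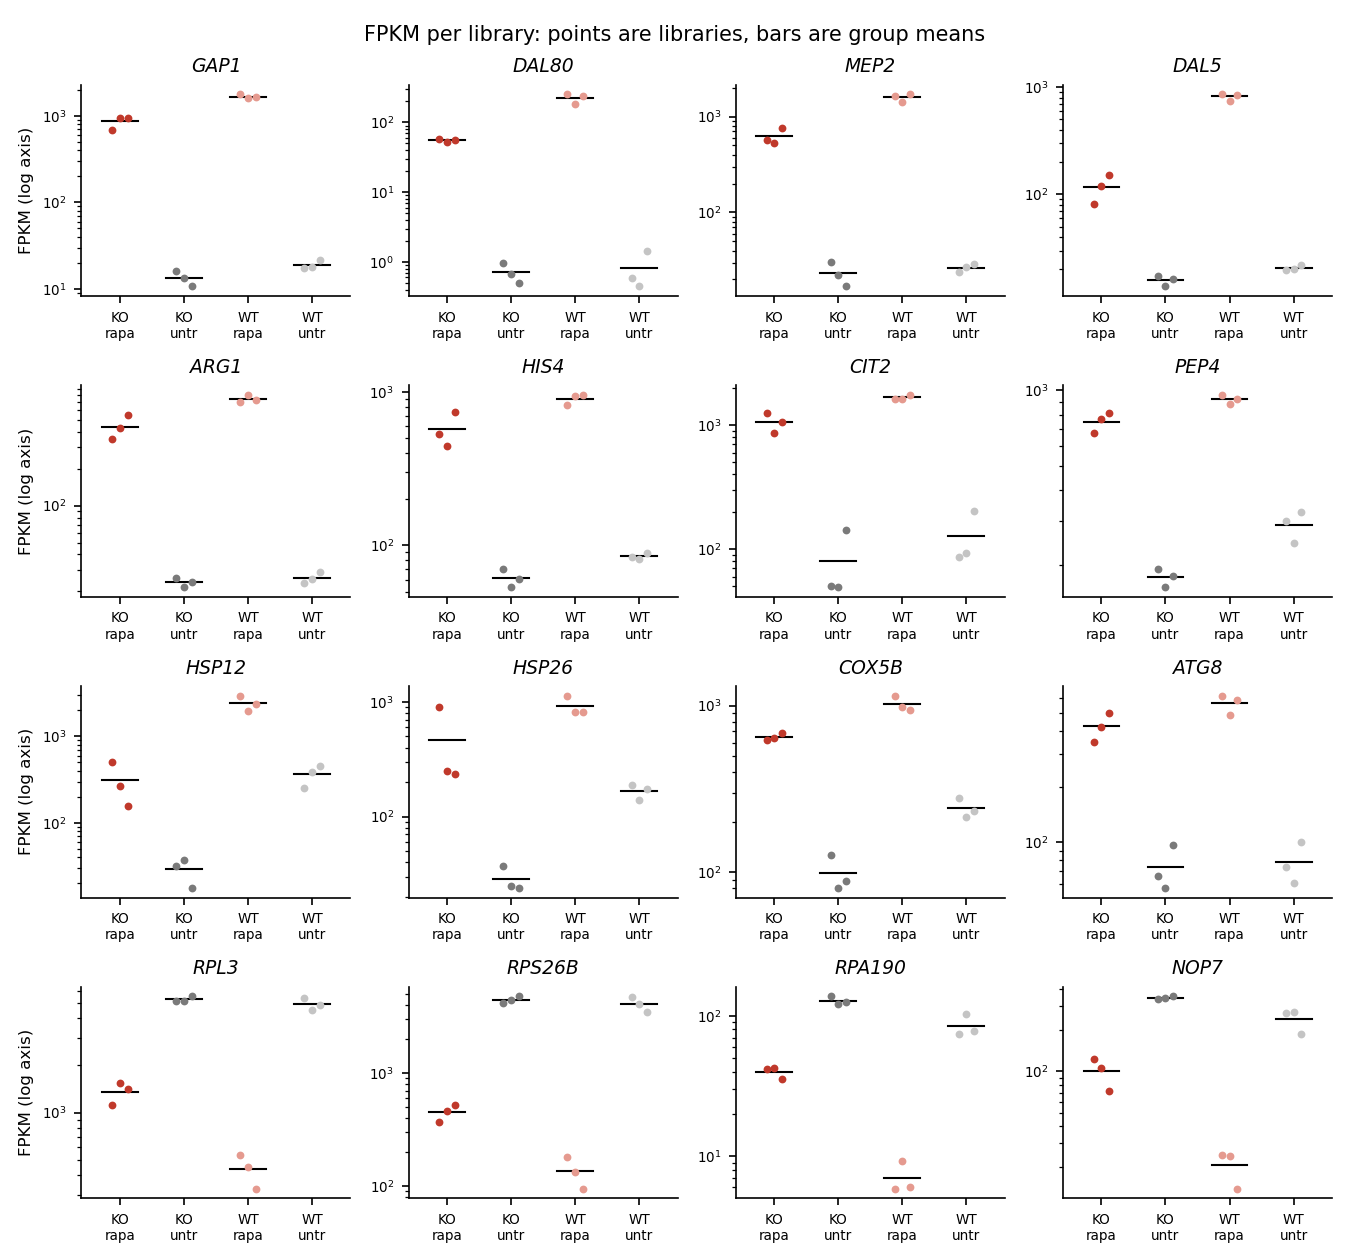
FPKM (log axis) of 16 genes in each library, grouped from left to right as RRD1 KO with rapamycin, RRD1 KO untreated, wild type with rapamycin and wild type untreated. Points are single libraries and bars are group means, and no treated KO value overlaps an untreated KO value in these genes.

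Regulators around TORC1 had mostly small changes. Of 31 genes of TORC1 and its inputs 14 were called higher and none lower, with a median of 0.54. Over all features 36.5% were called higher. With median-ratio scaling 5 of the TORC1 genes were higher and 2 lower. *TOR1*, the kinase, was at 21.2, 17.8 and 18.5 FPKM in the treated KO and 12.2, 9.88 and 11.02 FPKM in the untreated KO (log2 fold change 0.74). *SCH9*, a kinase that is a direct TORC1 substrate, was at 81.4, 64.6 and 55.5 FPKM in the treated KO and 69.1, 62.8 and 57.2 FPKM in the untreated KO, with overlapping groups (adjusted *p* = 0.73). Among 23 genes of PP2A-type phosphatases 11 were higher, against 36.5% of all features, and 7 were without library 3. With median-ratio scaling 5 were higher and 4 lower and the sign of the median turned. *RTS3*, a putative component of such a phosphatase, had the largest rise, at 381, 317 and 368 FPKM in the treated KO and 70.2, 31.3 and 49.5 FPKM in the untreated KO. *TAP42*, the TORC1-regulated partner of these phosphatases, had a log2 fold change of 0.46, and *TIP41*, which binds Tap42, one of 0.68. The call of *TAP42* was lost without KO library 3 or 6, and that of *TIP41* without any one of KO libraries 2 to 6. In the RAS and PKA pathway 8 of 19 genes were higher, near the 36.5% of all features, and 5 were without library 2, 3 or 5. With median-ratio scaling 4 were, and the sign of the median turned with quantile normalization. *PDE1*, a cAMP phosphodiesterase, rose by 2.68 on the log2 scale, while *TPK3*, a PKA catalytic subunit, had a log2 fold change of −0.59 and *RAS1* one of −1.01. Both of these falls lost their call without KO library 1, 3, 4 or 6, and 1 of them did without KO library 5 or without wild-type library 1, 2, 3, 5 or 6.

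Cell cycle, histone and mating genes gave few calls. Over all features 36.5% were called higher and 10.3% lower. Of 28 cyclins and cell cycle regulators 1 was higher and 3 were lower, the falls being near the share of all features. Among the falls were the S-phase cyclins *CLB5* (−0.49) and *CLB6* (−0.91). The falls were 0 without KO library 3, 1 without library 1 or 6 and 9 with median-ratio scaling. Without KO library 2 the rises were 4. The G1 cyclins *CLN1* and *CLN2* had log2 fold changes of 0.57 and 0.41, and neither was called (adjusted *p* = 0.035 and 0.031). Of 11 histone genes the called one was *CSE4*, the centromeric H3 (0.61), which lost its call without KO library 1, 3 or 4. Of 24 a-cell mating genes 3 were called higher, with treated library medians of 1.03, −0.19 and 0.10 in libraries 2, 4 and 6, and the median of the list was −0.09 without library 2. *STE2*, the alpha-factor receptor, was at 1363, 572 and 624 FPKM in the treated KO and 882, 531 and 537 FPKM in the untreated KO, with overlapping groups. Of 19 genes of alpha cells and sporulating cells 4 were called higher and 1 lower. The sign of the medians of the cyclin, histone and mating lists turned with a scaling of the libraries.

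*PIR3*, a cell wall protein, was at 322, 468 and 465 FPKM in the treated KO and 16.6, 9.03 and 13.4 FPKM in the untreated KO (log2 fold change 4.92, adjusted *p* = 1.6e-07). *PST1*, another cell wall protein, rose by 3.03, and *TIR4*, a mannoprotein, had a log2 fold change of −1.15, in a list where 17 of 36 genes were higher. *HMX1*, the heme oxygenase, was at 190.2, 136 and 114 FPKM in the treated KO and 17.0, 12.7 and 13.4 FPKM in the untreated KO, and 13 of 30 iron and copper genes were higher, near the 36.5% of all features, and 8 were with median-ratio scaling. Of 29 phosphate genes 9 were higher and 2 lower, near the shares of all features (36.5% and 10.3%). Without KO library 2 the falls were 6. *PHM8*, a phosphatase of the phosphate regulon, rose by 3.12 and *PHO90*, a low-affinity phosphate transporter, fell by 1.06 on the log2 scale. In ergosterol synthesis 18 of 32 genes were higher, led by *ERG28* (1.66), and 11 were without library 5. With median-ratio scaling 6 ergosterol genes were higher. The sign of the phosphate list median turned with that scaling.

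Other features with large changes lie outside the lists. *TMT1*, a methyltransferase that acts on trans-aconitate, was at 534, 546 and 656 FPKM in the treated KO and 31.2, 27.4 and 23.8 FPKM in the untreated KO. YGL117W, with no described function, was at 369, 426 and 533 FPKM in the treated KO and 25.3, 22.8 and 21.7 FPKM in the untreated KO. *GPG1*, named as a gamma-subunit mimic in glucose signaling, was at 354, 292 and 256 FPKM in the treated KO and 25.8, 8.98 and 26.5 FPKM in the untreated KO. *GFD2* was the largest fall outside the ribosome with an annotated length over 300 nt, at 13.7, 9.4 and 3.09 FPKM in the treated KO and 113, 108 and 65.2 FPKM in the untreated KO (log2 fold change −3.45). Short features varied more. YBR196C-A, of 150 nt, was at 0, 20.7 and 18.4 FPKM in the treated KO and 127, 132 and 217 FPKM in the untreated KO, a log2 fold change of −4.37 ± 0.99 (SE) whose call was lost without KO library 5. YOL083C-A was at 817, 621 and 884 FPKM in the treated KO and 95.3, 99.3 and 0 FPKM in the untreated KO, with 1 untreated library listed at 0, and its call was lost without KO library 2, 4 or 6.

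Set beside the wild type, the KO response shared most of its calls, and where the difference between strains was called the change in the KO was the smaller one. Of the 3034 KO calls 2671 were also called in the wild type in the same direction, which is 88.0% of the KO calls and 78.8% of the wild-type calls, and 0 were called in opposite directions. Of these shared calls 2018 were rises and 653 falls. The 2 responses rest on separate libraries, and their log2 fold changes had a Pearson *r* of 0.888 over the features, which share library depth and gene length and are not independent replicates. The difference between the responses was tested as the interaction of strain and drug. It was called for 17 features (0.262%), with 1089 at an unadjusted *p*-value under 0.05 and 154 (2.38%) at an adjusted *p*-value under 0.05. All 17 were called in the KO response, and in each of them the wild-type change was larger in size and of the same direction.

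Several of the interaction calls belong to the groups above. In the NCR list 6 of 47 genes were called and 14 had an adjusted *p* under 0.05. *DAL5* showed the largest of these differences. In the treated libraries it was at 81.6, 119 and 153 FPKM in the KO and 862, 748 and 854 FPKM in the wild type, and in the untreated ones at 17.2, 13.9 and 16.3 FPKM in the KO and 19.9, 20.1 and 21.9 FPKM in the wild type. Its log2 fold change was 2.78 in the KO and 5.25 in the wild type, a difference of −2.46 ± 0.26 (SE, adjusted *p* = 0.0042). *VBA1*, a vacuolar transporter of basic amino acids, had log2 fold changes of 1.06 in the KO and 2.51 in the wild type (adjusted *p* = 0.0013, the smallest of the interaction). *TSA2*, the peroxiredoxin, was at 146, 88.6 and 103 FPKM in treated KO libraries and 611, 389.7 and 473 FPKM in treated wild-type libraries. *MLS1* and *YAT2* had log2 fold changes of 1.84 and 2.44 in the KO and 3.53 and 3.94 in the wild type.

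On the side of the falls, *RPA190* had log2 fold changes of −1.66 in the KO and −3.42 in the wild type, and *RPA135* had −1.68 in the KO and −3.40 in the wild type. *URA1* had −2.31 in the KO and −4.27 in the wild type, with adjusted *p* = 0.0042 for the difference. *YEF3* had −0.76 in the KO and −2.09 in the wild type. No single ribosomal protein gene was called at 0.01, and 14 of 80 large subunit and 14 of 57 small subunit genes had an adjusted *p* under 0.05. Among assembly genes these were 22 of 78 and 8 of 77, and the list of the 90S particle and the small subunit held 1 call at 0.01. The interaction estimate (KO minus wild type) was positive for 80 of 80 large subunit and 57 of 57 small subunit genes, as it was for 4047 of all 6484 features, and its medians were 1.03 and 1.07 against 0.09 for all features. With quantile normalization 56 of the small subunit genes stayed positive, and the other scalings kept both counts. In the general stress list it was positive for 26 and negative for 27 genes with none called, and in autophagy it was positive for 20 and negative for 23 with none called, and the sign of the median of both turned with equal FPKM sums. These lists had medians of 1.44 and 1.16 in the KO and 1.56 and 1.29 in the wild type. For the respiratory chain and ATP synthase the estimate was positive for 48 of 51 genes, and for the proteasome for 35 of 37. Quantile normalization left 35 and 32 positive. For a-cell mating genes it was negative for 24 of 24 (21 with equal FPKM sums), with medians of 0.28 in the KO and 0.77 in the wild type. None of the stress, autophagy, respiratory, proteasome and mating lists held an interaction call. A *p*-value that misses the threshold does not show that the strains responded alike. The number of interaction calls was 1 without any one of KO libraries 3, 4 and 5 and wild-type libraries 1, 2, 3 and 6, 2 without KO library 1, 6 without wild-type library 5 and 9 without KO library 2.

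**Figure D4:**
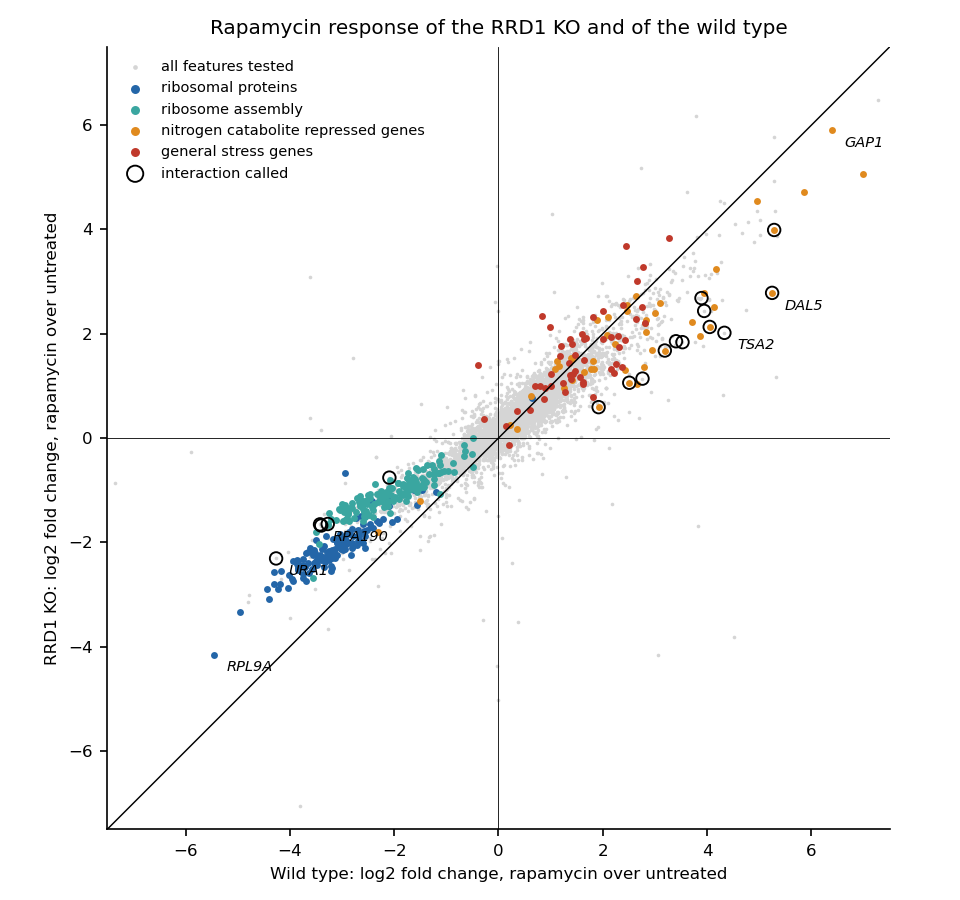
Log2 fold change with rapamycin (FPKM + 1 scale) in the RRD1 KO on the vertical axis and in the wild type on the horizontal axis, with the diagonal marking equal responses. Points are features, colored by 4 gene groups, circles mark the 17 interaction calls and 5 features outside the plotted range are not drawn. Ribosomal protein and assembly genes lie above the diagonal at the lower left, and the circled rises lie below it.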

How the data were processed

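The authors made TruSeq libraries from 250 ng of total RNA, sequenced single reads of 100 nt on a HiSeq instrument and deposited 1 column of FPKM per library, a unit that Cufflinks scales by transcript length and mapped reads. TopHat, Cufflinks and Cuffdiff are named in the submitters' processing notes, and their versions, the genome build and the annotation are not given in the sources used here. All 12 columns were mapped by their names.

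Features averaging 1 FPKM or more in the 6 KO libraries entered the test. The values were log-transformed as log2(FPKM + 1), which understates folds of low genes, and analysed in limma (version 3.58.1, under R 4.3.3). All 12 libraries shared 1 linear model of the 4 groups, with 8 residual degrees of freedom and variances moderated along a trend with level. Its contrasts were the KO response, the wild-type response and their difference, adjusted by Benjamini-Hochberg over all features and called under 0.01. The procedure was also run on simulated data with independent noise and few changed features. That setting differs from these data, where 46.8% of features were called and deviations correlated between adjacent libraries. *RRD1* lies below the filter and was not tested.

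Genes named are *RRD1* and *RRD2*, the 15 largest called rises and falls without overlap, a list of core genes, the 2 largest called rises and falls of each of 40 gene lists, and the 10 smallest interaction *p*-values. Some genes that this rule names are not reported here. The features, lists and core genes were chosen with earlier results of these data known. Lists are described by counts and medians, with no set test. Names were joined to R64, which matched 5845 of the tested features. Motifs were counted on both strands in the 300 bases before each start codon of R64, and TGACTC was added after the data were seen. Alternatives were other pseudocounts, filters, scalings, thresholds and fits, the library number as a block, each library left out and, chosen after the data were seen, a block of adjacent library numbers.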

Additional observations from a re-analysis of the deposited data

Results flagged for a closer look

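The rapamycin response of 12 of the named features differed between the *RRD1* KO and the wild type by the interaction test of limma. A negative difference (KO minus wild type, log2) was a smaller rise in the KO, and a positive one was a smaller fall in the KO. In nitrogen catabolite repression the differences were −1.45 for *VBA1* (vacuolar basic amino acid transport), −2.46 for *DAL5* (allantoate permease), −1.92 for *DAL2* (allantoicase) and −1.30 for *DUR3* (urea transport). In carbon and redox metabolism they were −1.69 for *MLS1* (malate synthase), −1.51 for *YAT2* (carnitine acetyltransferase) and −2.31 for *TSA2* (peroxiredoxin). YHR022C, an uncharacterized feature that overlaps another annotated one, had −1.62. Among genes that fell, the differences were 1.96 for *URA1* (pyrimidine synthesis), 1.72 for *RPA135* and 1.77 for *RPA190* (RNA polymerase I) and 1.33 for *YEF3* (translation elongation).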

How the results depend on the processing

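The KO response had 3034 calls. A change of at least 2-fold left 1416 of them (1035 higher and 381 lower) and 1805 calls in the wild type. Median-ratio scaling gave 1295 higher and 1311 lower, and quantile normalization 1326 higher and 1400 lower. Leaving out 1 library gave between 2444 and 3114 KO calls, the fewest without untreated KO library 3. The interaction, with 17 calls, was the least stable count, with 154 at an adjusted *p* under 0.05, 11 with a pseudocount of 0.1, 7 with no filter on low values, 53 with equal FPKM sums, 103 with quantile normalization, 7 with no mean-variance trend and 1 to 19 when 1 library was left out. With the library number as a replicate block it had 7 calls. Treated and untreated KO libraries share no number, so this block could not be fitted to the KO response, and deviations of same-numbered KO and wild-type libraries correlated between −0.18 and 0.13. A replicate block of adjacent library numbers (1 with 2, 3 with 4 and 5 with 6 of a strain) was chosen after seeing the data. It gave 3711 KO calls, 3000 of them shared with the 3034 in the same direction, and 83 interaction calls. *MFA1*, *GCN4*, *CLN1* and *SIC1* gained a call (*MFA1* adjusted *p* = 0.0085 by limma), *CYC1* lost its own, and *HAP4* (0.024) and *STE2* (0.050) stayed uncalled. Of the 168 named called genes 136 kept their call and direction under every alternative run, and *YEF3* turned to a log2 fold change of 0.222 with quantile normalization. The causes were not tested. The 3 libraries per group and the depth limit what could be called among low genes.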

Other observations

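Deviations from the group mean correlated between KO libraries of adjacent numbers, with Pearson's *r* over features of 0.18 for libraries 1 and 2, 0.17 for 3 and 4 and 0.16 for 5 and 6. The other pairs of a treated and an untreated KO library had between −0.12 and −0.04. In the wild type the adjacent numbers had 0.27, 0.24 and 0.30, and the other pairs between −0.18 and −0.08. These are values over features, which are not independent, and the labels do not say that adjacent libraries share a day or culture. Deviations cancel within each group, so positive adjacent values force negative ones among the other pairs, which are not a separate comparison.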
